A study of Homo sapiens with 4 samples.

Results

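GATA2, TAL1, LYL1, LMO2, ERG and FLI1 are transcription regulators of blood stem and progenitor cells, and open chromatin around these 6 genes was read from ATAC-seq peak lists of ME-1 cells treated with AI-10-49 or with DMSO. A listed peak was assigned to a gene if its midpoint lay in a window around that gene on build hg19, and overlapping peaks of different libraries (1 bp or more) were joined into 1 region. The 6 windows held 97 of the 103230 merged regions of all 4 libraries. The windows were chr3:128150000-128360000 for GATA2 with its distal enhancer, chr1:47630000-47750000 for TAL1, chr19:13190000-13230000 for LYL1, chr11:33850000-33990000 for LMO2, chr21:39700000-40080000 for ERG and chr11:128510000-128730000 for FLI1. They are approximate and also hold neighbouring sequence, so a region is placed near a gene and is not assigned to it by function.

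ATAC-seq uses the Tn5 transposase to cut and tag DNA that is not covered by nucleosomes. All 4 libraries came from ME-1, a single human leukaemia cell line carrying inv(16), a rearrangement that fuses CBFB to MYH11 and yields CBFβ-SMMHC. The AI-10-49 group (2 libraries) received 1 µM of this compound, which blocks the contact of CBFβ-SMMHC with RUNX1, for 6 h, and the DMSO group (2 libraries) received the solvent alone for the same 6 h. The series' design text reports independent experiments for both treatments, all in that 1 line, so p-values measure the spread between these libraries only. The sum over many cells does not tell a larger share of cells with an open site from a more open site in each cell.

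The proteins of these genes, together with RUNX1, are known to bind jointly at many enhancers of blood stem and progenitor cells, including enhancers of their own genes. GATA2 is a zinc finger protein that binds GATA motifs, TAL1 and LYL1 are related basic helix-loop-helix proteins that bind E-box motifs with a partner, LMO2 binds no DNA itself and bridges GATA and TAL1 proteins, and ERG and FLI1 are ETS family factors. Several of them were found through rearrangements in leukaemia, TAL1, LYL1 and LMO2 in T cell leukaemia and ERG in myeloid leukaemia and prostate cancer.

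RefSeq promoter sequences (GRCh38.p14, 250 bases before to 50 bases after an annotated start) were matched by symbol for 4 of the 6 genes, GATA2, TAL1, LYL1 and ERG, with 9 promoters in all. The promoter of LYL1, the most upstream one of TAL1 and the most upstream one of ERG are shown because the peaks near these starts differ most in what is described below: an AI-10-49-only region near LYL1, a region of lower rank after AI-10-49 near TAL1, and no listed region near the upstream start of ERG. Capitals mark matches, on either strand, to a GATA word spelled AGATAA, a short ETS word spelled AGGAAG, a long ETS word spelled ACCGGAAG, E-box words spelled CAGCTG and (as a variant) CAGATG, and a RUNX word spelled TGTGGT, none of which contains another.
LYL1 promoter, GRCh38.p14 chr19:13102809-13103108, minus strand: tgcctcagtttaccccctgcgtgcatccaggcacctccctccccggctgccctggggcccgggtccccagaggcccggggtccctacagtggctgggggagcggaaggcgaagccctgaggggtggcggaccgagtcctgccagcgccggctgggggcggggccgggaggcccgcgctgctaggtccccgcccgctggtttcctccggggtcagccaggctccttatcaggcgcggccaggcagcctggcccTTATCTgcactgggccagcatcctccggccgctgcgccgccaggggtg
TAL1 upstream promoter, GRCh38.p14 chr1:47232286-47232585, minus strand: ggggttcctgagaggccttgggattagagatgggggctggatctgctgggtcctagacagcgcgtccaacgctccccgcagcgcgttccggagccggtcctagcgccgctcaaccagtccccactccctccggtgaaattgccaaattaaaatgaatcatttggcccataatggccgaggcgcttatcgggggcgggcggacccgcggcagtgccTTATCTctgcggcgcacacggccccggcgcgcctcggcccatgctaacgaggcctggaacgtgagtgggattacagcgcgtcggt
ERG upstream promoter, GRCh38.p14 chr21:38660618-38660917, minus strand: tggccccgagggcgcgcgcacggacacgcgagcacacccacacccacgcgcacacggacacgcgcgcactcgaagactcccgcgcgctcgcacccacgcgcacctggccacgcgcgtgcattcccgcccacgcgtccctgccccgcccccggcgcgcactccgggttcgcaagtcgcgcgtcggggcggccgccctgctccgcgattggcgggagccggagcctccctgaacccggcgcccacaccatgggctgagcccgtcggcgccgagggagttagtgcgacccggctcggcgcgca
The LYL1 and TAL1 promoters each hold 1 match, to the GATA word on the opposite strand (TTATCT), and the ERG promoter holds none of the 6 words. Other promoters of these genes in the table hold different words: a second TAL1 promoter has 3 RUNX and 2 short ETS matches, and of the 3 further ERG promoters 1 has no match, 1 has a GATA and a short ETS match, and 1 has these and an E-box variant. The last 2 of these ERG promoters overlap, and their GATA and short ETS matches are the same sites. Of the GATA2 promoters, the upstream one has 1 short ETS match and the other 1 E-box match. The GATA word occurs in 10.3% of 35093 distinct promoters of the same length, the short ETS word in 33.7%, the long ETS word in 2.17%, the E-box word in 17.9%, its variant in 14.7% and the RUNX word in 13.1%. GC content was 74.7% for LYL1, 64.3% for TAL1 and 77.0% for ERG, against a median of 58.7% over all promoters. These sequences are on another build than the peaks and were not placed on them, so a match describes the letters only.

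The AI-10-49 lists were shorter than the DMSO lists over the whole genome, with 48930 and 53438 peaks in AI-10-49 replicates 1 and 2 and 67388 and 65132 in DMSO replicates 1 and 2. The most frequent background level was 0.0965 and 0.108 reads per base with AI-10-49, against 0.0613 and 0.060 with DMSO. The smallest listed peak had 3 reads at its summit in the AI-10-49 lists and 2 in the DMSO lists. In multiples of the background level, 3 reads stood at 31.1 and 27.9 with AI-10-49, and 2 reads at 32.6 and 33.3 with DMSO. The smallest peak was thus lower with DMSO in reads, but not in multiples of background. Chromosome 19, which carries LYL1, held 4.05% and 3.88% of the AI-10-49 lists, against 3.30% and 3.03% of the DMSO lists. Windows of the myeloid genes SPI1, MPO and CD33 held 3, 1 and 2 regions of all 4 libraries, while those of the liver gene ALB and the erythroid gene GATA1 held 0. The GATA1 window did hold 3 regions listed in fewer libraries, whereas that of ALB held 0 regions of any kind. The window of the T cell gene CD3E held 1 region of all 4 libraries. Since windows also hold neighbouring genes, these counts do not separate myeloid cells from T cells.

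The 6 windows together held 65 and 64 listed peaks with AI-10-49, against 75 and 60 with DMSO. The mean was 64.5 ± 0.707 peaks with AI-10-49 and 67.5 ± 10.6 with DMSO (SD, n = 2 each), a difference smaller than the spread of the DMSO libraries. Peaks covered 9076 and 9582 bp with AI-10-49, against 10036 and 8506 bp with DMSO, and these ranges overlap. As a share of each list, the windows took 0.133% and 0.120% with AI-10-49, against 0.111% and 0.0921% with DMSO.

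**Figure D1:**
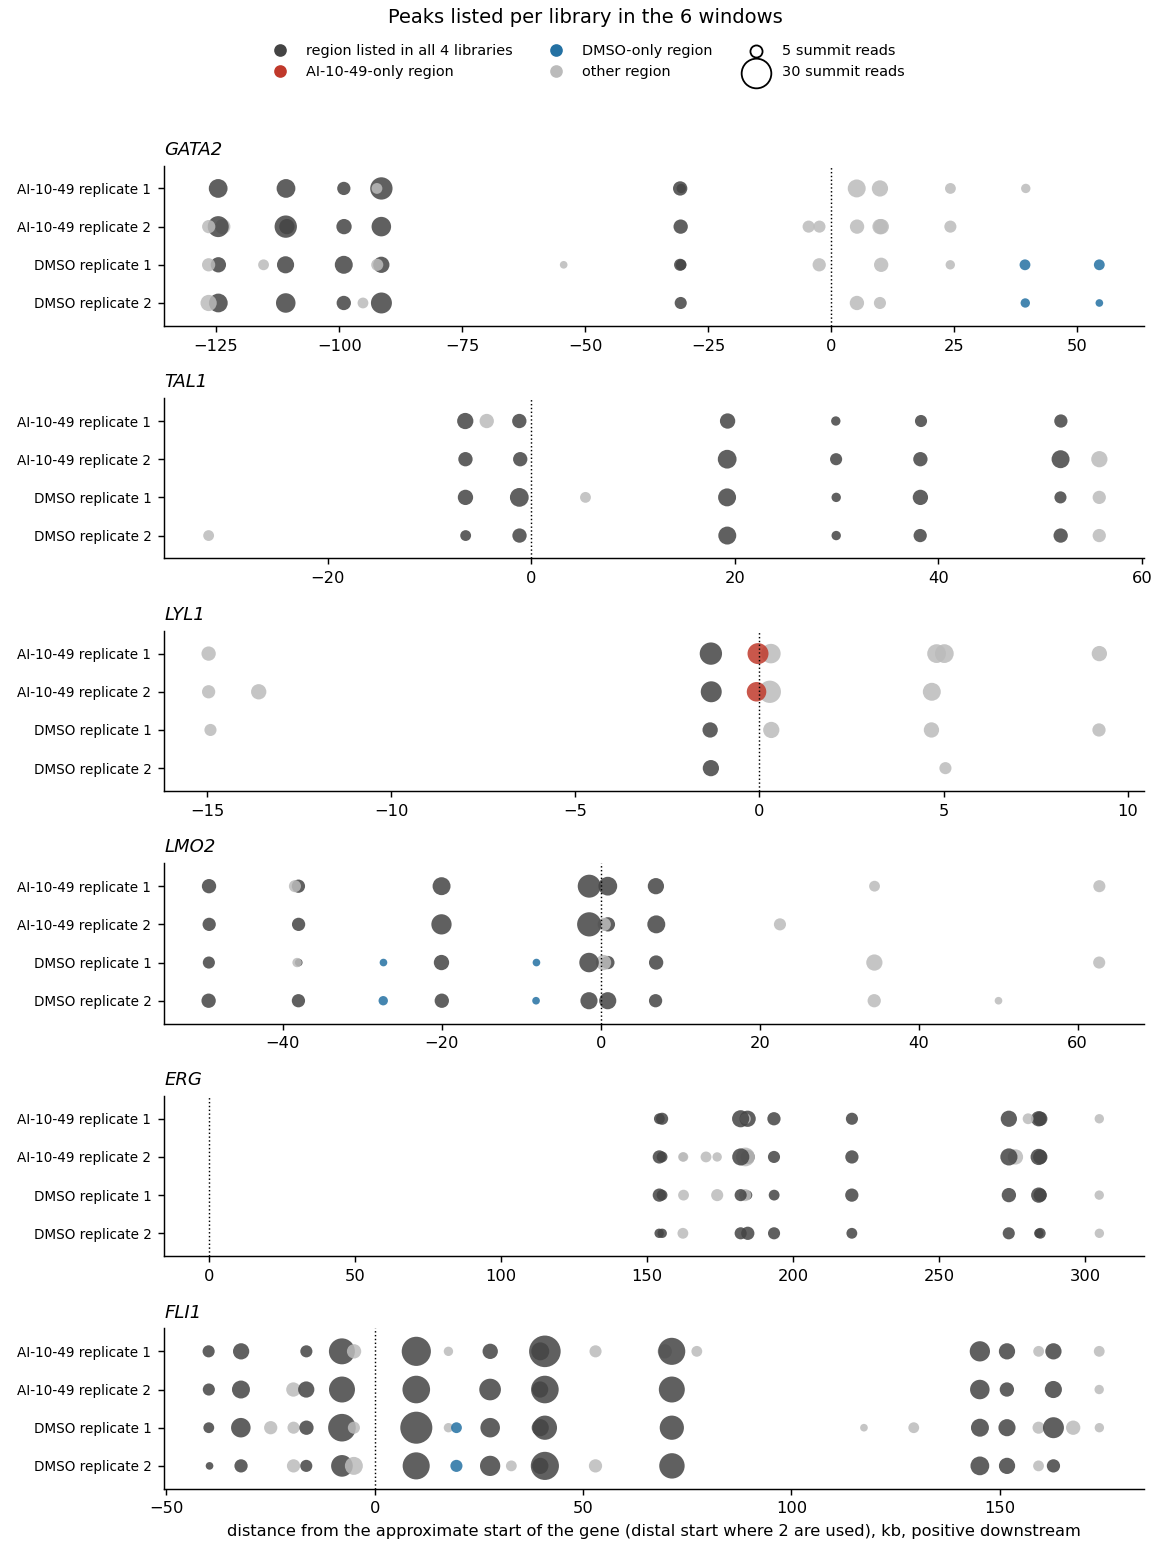
Listed peaks of the 6 windows, 1 row per library with the AI-10-49 libraries above the DMSO libraries; the horizontal axis is distance in kb from the approximate start (dotted line; the upstream one where a gene has more), point area follows summit reads and colour the class of the region. FLI1 has the most regions, 26, and ERG has none near its upstream start.

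Of the 97 regions, 39 (40.2%) were listed in all 4 libraries, against 28.1% of regions genome-wide. Only 1 (1.03%) was AI-10-49-only, meaning listed in both AI-10-49 libraries and neither DMSO library, against 1.92% genome-wide. DMSO-only regions, the opposite case, numbered 5 (5.15%), against 4.69% genome-wide. Regions of a single library numbered 25 (25.8%), against 43.9% genome-wide. The shares of treatment-only regions around the 6 genes thus lay close to the background of the lists. Their balance depended on list length: with the strongest 48930 peaks of every list, 4 of 88 regions (4.55%) were AI-10-49-only and 1 (1.14%) was DMSO-only, against 3.77% and 3.11% genome-wide at that length.

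**Figure D2:**
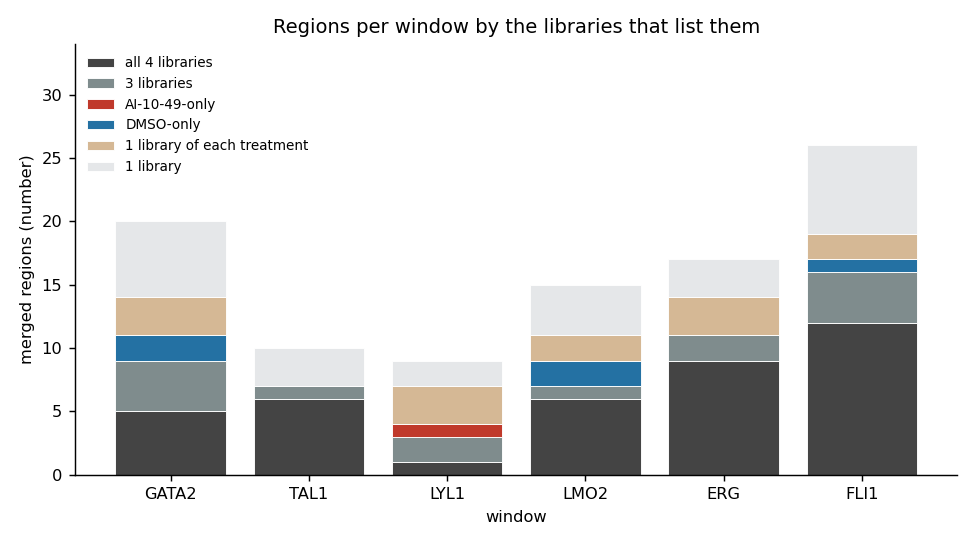
Stacked bars give the number of merged regions per gene window by the libraries that list them: all 4, 3, AI-10-49-only, DMSO-only, 1 library of each treatment, and 1 library. The single AI-10-49-only region is at LYL1, and the 5 DMSO-only regions are at GATA2 (2), LMO2 (2) and FLI1 (1).

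For regions of all 4 libraries, strength was compared by rank percentile, the position of a region's −log10 p-value in a library among the 29042 regions listed in all 4 libraries, with 100 the strongest. A region was ranked higher if both AI-10-49 percentiles lay above both DMSO percentiles, and lower in the opposite case. Around the 6 genes 8 of 39 regions (20.5%) were ranked higher and 8 (20.5%) lower, against 19.6% and 18.8% of all regions of all 4 libraries. The median absolute difference of the group means was 8.62 percentile points, against 10.9 points between the AI-10-49 replicates and 19.6 points between the DMSO replicates. A mean of 2 libraries varies less than 1 library, so the first value is not on a like scale with the others. Over all 29042 regions the corresponding values were 11.5, 12.4 and 15.3 points. Whether the treatments differ beyond the spread of replicates was not tested. The 3 called lower at TAL1, 4 at FLI1 and 1 at GATA2, and the 3 called higher at LMO2, 2 at ERG and 1 each at LYL1, GATA2 and FLI1, are descriptions of the authors' own values per peak and carry no test.

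**Figure D3:**
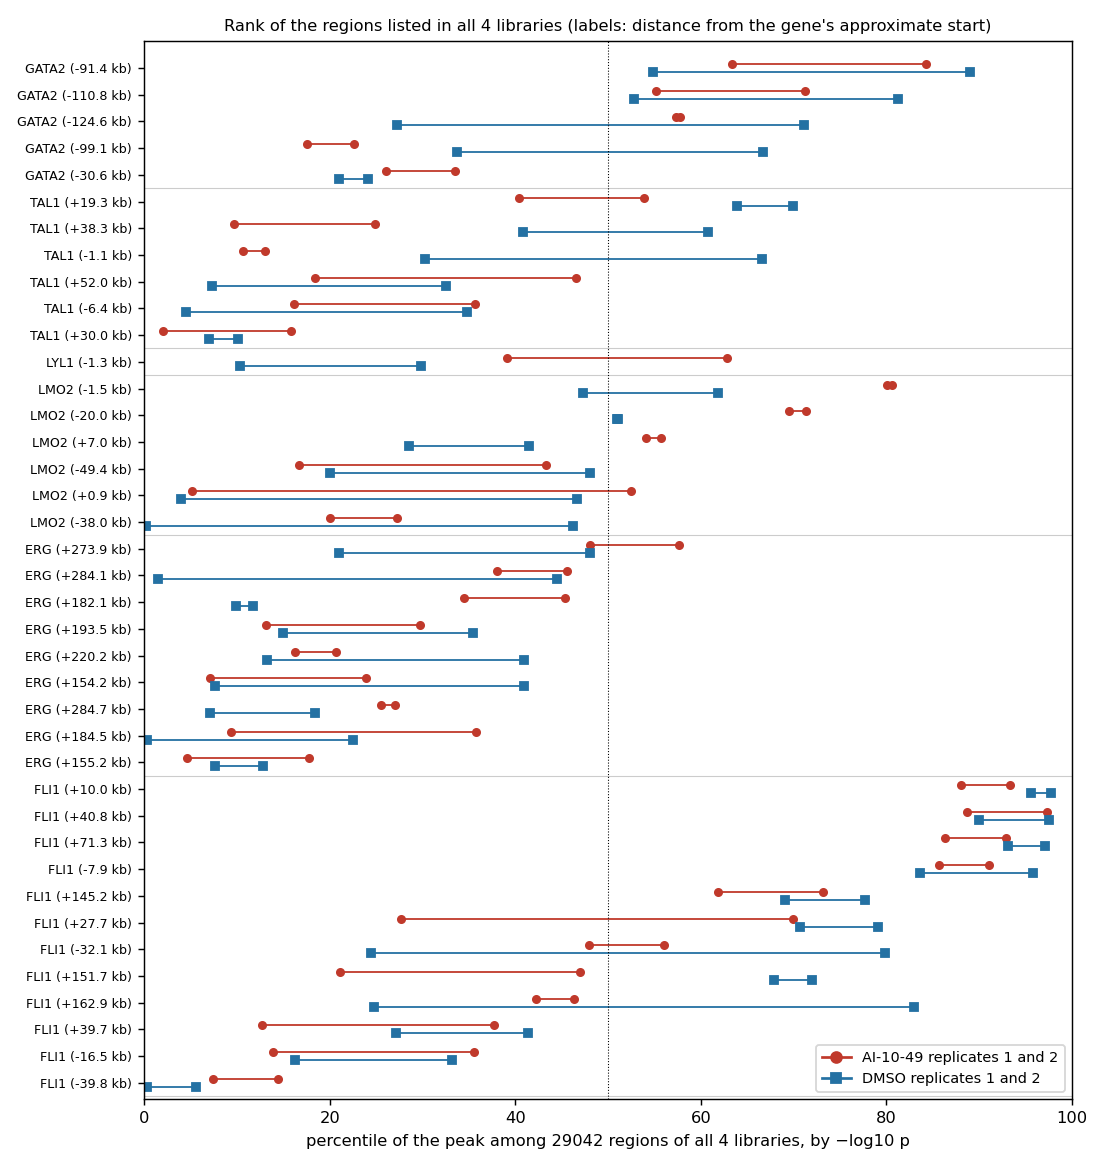
Each of the 39 regions of all 4 libraries has 1 row, with rank percentile on the horizontal axis; red circles above are the AI-10-49 replicates, blue squares beneath are the DMSO replicates, and a line joins the replicates of a treatment. FLI1 regions reach the highest mean percentile, 93.7, ERG regions have means of at most 43.7, and the lines of both treatments overlap in most rows.

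GATA2, the zinc finger factor, had 20 regions, 5 of them in all 4 libraries, 0 AI-10-49-only and 2 DMSO-only. Its window held 11 and 14 peaks with AI-10-49, against 15 and 11 with DMSO. The ranges overlapped, and the means, 12.5 ± 2.12 with AI-10-49 and 13.0 ± 2.83 with DMSO (SD, n = 2 each), differed by -0.50 (two-sided exact permutation test, p = 1.0). With 2 libraries per group that test cannot give a p below 0.333 for any of the 6 genes. The difference turned to 2.5 with the strongest 48930 peaks of every list.

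Among the GATA2 regions of all 4 libraries, 4 lay in the far upstream part of the window and none within 2 kb of either approximate start. Distances to starts come from approximate positions known to about 1 kb, since no annotation of hg19 was used, and negative values are upstream. The strongest, chr3:128303339-128303529 at about -91.4 kb from the upstream start, had 17 and 13 summit reads with AI-10-49, against 9 and 15 with DMSO. Summit reads are whole numbers recovered from the deposited fold and p-value, and their 95% Poisson intervals, which cover counting error only, ran from 9.90 to 27.2 for the 17 reads and from 4.12 to 17.1 for the 9 reads. The groups overlapped there, as they did at chr3:128322572-128323056, at about -110.8 kb, with 12 and 17 reads with AI-10-49 and 10 and 13 with DMSO. They overlapped again at chr3:128336434-128336718, at about -124.6 kb and toward the neighbouring gene RPN1, with 12 and 15 reads with AI-10-49 and 8 and 12 with DMSO.

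Between these upstream sites, chr3:128310963-128311146 at about -99.1 kb was ranked lower, with 6 and 8 reads with AI-10-49 and 11 and 7 with DMSO. Its percentiles were 17.5 and 22.6 with AI-10-49, against 66.7 and 33.75 with DMSO, a difference of -30.2 points in which DMSO replicate 1 stood far above the rest. The weakest of the 5, chr3:128242469-128242782 at about -30.6 kb, was ranked higher by 7.24 points, with 7 and 7 reads with AI-10-49 and 5 and 5 with DMSO. In multiples of the library background the order was the opposite there, at 72.5 and 65.1 with AI-10-49 and 81.6 and 83.3 with DMSO. Neighbouring sites upstream of GATA2 were thus ranked in opposite directions or overlapped.

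At the gene itself, chr3:128206669-128206898 by the downstream start had 11 and 7 reads with AI-10-49, was unlisted in DMSO replicate 1 and had 7 reads in DMSO replicate 2. No region lay within 2 kb of the upstream start. The DMSO-only regions of GATA2 were weak and lay downstream of the gene, chr3:128157509-128157601 with 4 and 2 reads and chr3:128172567-128172707 with 4 and 3 reads in the DMSO libraries. The AI-10-49 peak nearest to both was the same peak of 3 reads in AI-10-49 replicate 1, which lay 14863 bp from the first region and 33 bp from the second.

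TAL1, an E-box factor that drives early blood formation, had 10 regions, of which 6 were in all 4 libraries, with 0 AI-10-49-only and 0 DMSO-only. It held 7 and 7 peaks with AI-10-49, against 8 and 8 with DMSO, a difference of -1.0 (two-sided exact permutation test, p = 0.333, the smallest possible). The groups did not overlap in this count, but covered length did, at 979 and 1108 bp with AI-10-49 and 1112 and 1012 bp with DMSO. The difference in peaks turned to 1.0 among peaks of at least 5 summit reads. Of the 6 TAL1 regions of all 4 libraries, 3 were ranked lower and 0 higher, against 18.8% and 19.6% genome-wide.

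Near the start of TAL1 lay a region with 1 of the largest 3 rank differences in the lower direction, the others being at FLI1 and further downstream at TAL1. This region, chr1:47697954-47698239, within 2 kb of the approximate start, had 7 and 7 summit reads with AI-10-49, against 12 and 7 with DMSO. In multiples of the library background these were 72.5 and 65.1 with AI-10-49, against 196 and 117 with DMSO, so the same 7 reads stood further above background with DMSO. Its percentiles, 10.7 and 13.0 with AI-10-49 and 66.61 and 30.2 with DMSO, differed by -36.6 points without overlap. Much of that difference rested on DMSO replicate 1, since it was -19.4 points without that library and -55.4 points without DMSO replicate 2.

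Toward the downstream end of the TAL1 window, where PDZK1IP1 is the next gene in RefSeq order, chr1:47658612-47658856 had 5 and 7 reads with AI-10-49 and 8 and 6 with DMSO. Reads overlapped between the groups, while percentiles of 9.66 and 24.9 with AI-10-49 lay below 60.8 and 40.8 with DMSO, a difference of -33.5 points. At chr1:47677624-47677872, about 19.3 kb downstream of the start and the strongest TAL1 region by mean percentile (57.0), there were 8 and 12 reads with AI-10-49 and 11 and 11 with DMSO, and the rank difference was -19.8 points. The other TAL1 regions of all 4 libraries overlapped between groups in percentile. They were chr1:47644868-47645085 with 6 and 11 reads with AI-10-49 and 5 and 7 with DMSO, chr1:47703349-47703544 upstream of the start with 9 and 7 against 8 and 4, and chr1:47666986-47667113 with 3 and 5 against 3 and 3.

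LYL1, the close relative of TAL1, had 9 regions, of which 1 was in all 4 libraries, 1 was AI-10-49-only and 0 were DMSO-only. Its window held 7 and 6 peaks with AI-10-49, against 5 and 2 with DMSO, so both AI-10-49 libraries lay above both DMSO libraries. The means were 6.5 ± 0.707 with AI-10-49 and 3.5 ± 2.12 with DMSO (SD, n = 2 each), a difference of 3.0 (two-sided exact permutation test, p = 0.333). Covered length was 1072 and 986 bp with AI-10-49, against 669 and 383 bp with DMSO, a difference of 503 bp (exact permutation test, p = 0.333). Neither test could pass 0.05 with this number of libraries.

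The only AI-10-49-only region of the 6 windows was chr19:13213975-13214156, the listed region nearest to the approximate start of LYL1. It had 15 reads (95% Poisson interval 8.40 to 24.7) in AI-10-49 replicate 1 and 13 reads (6.92 to 22.2) in replicate 2, and was unlisted in both DMSO libraries. Among all 1985 AI-10-49-only regions, 9 (0.453%) had at least 13 reads in the weaker of their libraries, and the median was 5 reads. A site that a list leaves out is below that list's threshold, and its reads with DMSO are unknown. The nearest DMSO peaks lay 235 bp away in replicate 1 and 1011 bp away in replicate 2, each with 9 reads.

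The nearer of these DMSO peaks belonged to chr19:13213619-13213803, a region picked after its values were seen. It had 13 and 17 reads with AI-10-49, against 9 in DMSO replicate 1 and no listed peak in DMSO replicate 2. Which of these adjacent regions lies at the start cannot be said at a precision of about 1 kb. Local background, the level against which the peak caller judged a site, was 14.2 and 14.9 times the library background at the AI-10-49-only region. Its median over all regions of all 4 libraries was 2.59 and 2.66 times in AI-10-49 replicates 1 and 2. The share of 0.453% given above is in raw reads and was not taken at a like local background. On chromosome 19 as a whole, 1592 regions were held by both AI-10-49 lists and 147 of them (9.23%) had no DMSO peak, against 5.36% of 37031 on all chromosomes. The part of this chromosome-wide difference in the LYL1 result was not tested.

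**Figure D4:**
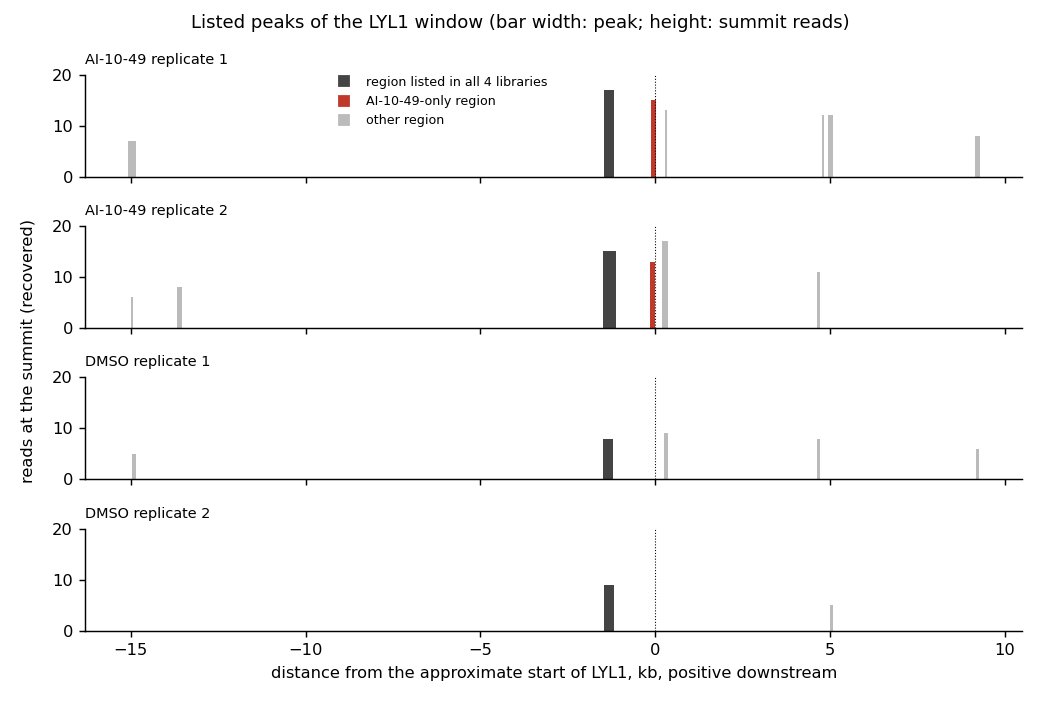
Listed peaks of the LYL1 window, with AI-10-49 libraries above DMSO libraries, summit reads on the vertical axis and distance from the approximate start in kb on the horizontal axis. The AI-10-49-only region (15 and 13 reads) lies between a region of all 4 libraries and one unlisted in DMSO replicate 2.

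The 1 LYL1 region of all 4 libraries, chr19:13215134-13215490, lay upstream of the start and had 1 of the largest 3 rank differences in the higher direction, with ERG and LMO2. It had 17 and 15 reads with AI-10-49, against 8 and 9 with DMSO, and the groups did not overlap. Percentiles were 62.8 and 39.1 with AI-10-49, against 10.3 and 29.8 with DMSO, a difference of 30.9 points, which was 17.96 points when regions were ranked by fold enrichment. In multiples of library background the groups overlapped, at 176 and 139 with AI-10-49 and 130.5 and 150 with DMSO. Local background was 11.8 and 12.3 times the library background with AI-10-49 and 13.18 and 10.75 times with DMSO, also overlapping.

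LMO2, the bridging protein, had 15 regions, of which 6 were in all 4 libraries, 0 were AI-10-49-only and 2 were DMSO-only. Its window held 9 and 8 peaks with AI-10-49, against 12 and 10 with DMSO, a difference of -2.5 without overlap (two-sided exact permutation test, p = 0.333), which turned to 1.0 with the strongest 48930 peaks of every list. The peak count and the ranks of LMO2 went opposite ways, since 3 of the 6 regions were ranked higher and 0 lower. Genome-wide the shares were 19.6% and 18.8%.

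The strongest LMO2 region was chr11:33915275-33915673, about -1.5 kb from the upstream start, with 18 and 20 reads with AI-10-49 and 13 and 10 with DMSO. Its percentiles were 80.7 and 80.1 with AI-10-49, against 61.8 and 47.3 with DMSO, a difference of 25.9 points, which was 17.02 without DMSO replicate 2 and 10.2 when regions were ranked by summit reads. In multiples of library background the groups overlapped, at 186.5 and 185.9 with AI-10-49 and 212 and 167 with DMSO. Local background there was 6.09 and 5.93 times the library background with AI-10-49, against 9.95 and 8.91 times with DMSO, and its part in the rank difference was not tested.

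Further upstream of LMO2, chr11:33933931-33934155 at about -20.0 kb had 11 and 14 reads with AI-10-49 and 8 and 7 with DMSO, and was ranked higher by 19.4 points. Within the gene, chr11:33906892-33907208 at about 7.0 kb had 9 and 11 reads with AI-10-49 and 7 and 6 with DMSO, and was ranked higher by 19.9 points. Reads did not overlap between groups at either site, whereas multiples of background did at both, with 114 and 130.1 with AI-10-49 and 130.5 and 117 with DMSO at the upstream one. The remaining LMO2 regions of all 4 libraries overlapped in percentile: chr11:33913043-33913190 near the upstream start (12 and 7 reads with AI-10-49, 6 and 10 with DMSO), chr11:33951900-33952168 (6 and 6, against 2 and 6) and chr11:33963220-33963489 (7 and 6, against 5 and 7).

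Closest to the upstream start of LMO2 was chr11:33913540-33913706, listed with 6 reads in AI-10-49 replicate 2 and 8 reads in DMSO replicate 1 only. By the downstream start, chr11:33891426-33891493 was listed only in AI-10-49 replicate 2, with 5 reads. The DMSO-only regions of LMO2 were chr11:33922068-33922182 with 2 and 2 reads and chr11:33941317-33941421 with 2 and 3 reads in the DMSO libraries. A peak of 2 reads is below the smallest peak of either AI-10-49 list in reads, but not in multiples of library background.

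ERG, the ETS factor needed for upkeep of blood stem cells, had 17 regions in the longest window, or 4.47 per 100 kb, the lowest density of the 6 genes. Of these 9 were in all 4 libraries, 0 AI-10-49-only and 0 DMSO-only. It held 12 and 15 peaks with AI-10-49, against 13 and 11 with DMSO, and the groups overlapped (difference 1.5, two-sided exact permutation test, p = 0.667), with a difference of -2.5 among peaks at least 60 times above background. Regions of all 4 libraries were weak here, with at most 10 and 10 summit reads with AI-10-49 and 8 and 6 with DMSO.

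All ERG regions lay in the downstream part of the window, and the one nearest to the upstream start was chr21:39878667-39878835, about 154.2 kb downstream of that start. It had 4 and 6 reads with AI-10-49 and 6 and 3 with DMSO. Near the downstream start, chr21:39870394-39870477 was listed with 3 reads in AI-10-49 replicate 2 and 4 reads in DMSO replicate 1. A stretch without listed peaks is one where no site passed the threshold of these shallow lists, in either treatment.

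The ERG site with the largest rank difference was chr21:39850799-39850979, about 19.1 kb downstream of the downstream start. It had 10 and 10 reads with AI-10-49 (95% Poisson interval 4.80 to 18.4 for each), against 5 and 5 with DMSO (1.62 to 11.7 for each). In multiples of library background these were 103.6 and 92.94 with AI-10-49, against 81.57 and 83.33 with DMSO. The groups did not overlap on that scale either, but lay closer together in proportion than in reads. Percentiles were 45.4 and 34.5 with AI-10-49, against 9.89 and 11.8 with DMSO, a difference of 29.1 points without overlap, and of 16.6 points among peaks at least 60 times above background. The strongest by mean percentile, chr21:39758974-39759164, had 9 and 10 reads with AI-10-49 and 7 and 5 with DMSO, and its percentiles of 57.6 and 48.0 with AI-10-49 overlapped 48.1 and 20.99 with DMSO.

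The next ERG regions in strength also overlapped in percentile. Reads were 8 and 9 with AI-10-49 and 8 and 3 with DMSO at chr21:39748765-39748939, 6 and 5 against 4 and 5 at chr21:39839387-39839536, and 5 and 6 against 6 and 4 at chr21:39812748-39812925.

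FLI1, the ETS factor closest to ERG, had the most regions, 26, and the most in all 4 libraries, 12, with 0 AI-10-49-only and 1 DMSO-only. Its window held 19 and 14 peaks with AI-10-49, against 22 and 18 with DMSO, and the groups overlapped (difference -3.5, two-sided exact permutation test, p = 0.667), with a difference of 1.0 for the strongest 48930 peaks of every list. FLI1 carried all 3 regions of the 6 genes with a mean percentile over 90, a share of 7.69% of the 39 regions, against 7.23% of all regions of all 4 libraries. Of the 12 FLI1 regions of all 4 libraries, 4 were ranked lower and 1 higher, against 18.8% and 19.6% genome-wide.

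The strongest region of the 6 genes was chr11:128565825-128566100, about 2.0 kb downstream of the downstream start of FLI1. It had 29 and 26 reads with AI-10-49, against 35 and 25 with DMSO, so reads overlapped. In multiples of library background it stood at 300.5 and 242 with AI-10-49, against 571 and 417 with DMSO. Its percentiles, 93.4 and 88.0 with AI-10-49 and 97.7 and 95.6 with DMSO, did not overlap, with a difference of -5.96 points. Local background was 9.49 and 7.93 times the library background with AI-10-49, against 17.7 and 13.9 times with DMSO, and its part was not tested.

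Of the other strong FLI1 sites, chr11:128596745-128596919 had 34 and 26 reads with AI-10-49 and 20 and 27 with DMSO, with overlapping percentiles. Upstream of the gene, chr11:128547960-128548305 had 23 and 23 reads with AI-10-49 and 26 and 16 with DMSO, again overlapping. At chr11:128627185-128627420 there were 25 and 23 reads with AI-10-49 and 20 and 22 with DMSO, and yet the region was ranked lower, with a difference of -5.50 points. The sign of the difference there depended on the scale, since summit reads were higher with AI-10-49 and multiples of background were lower, at 259 and 214 with AI-10-49 and 326 and 367 with DMSO.

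**Figure D5:**
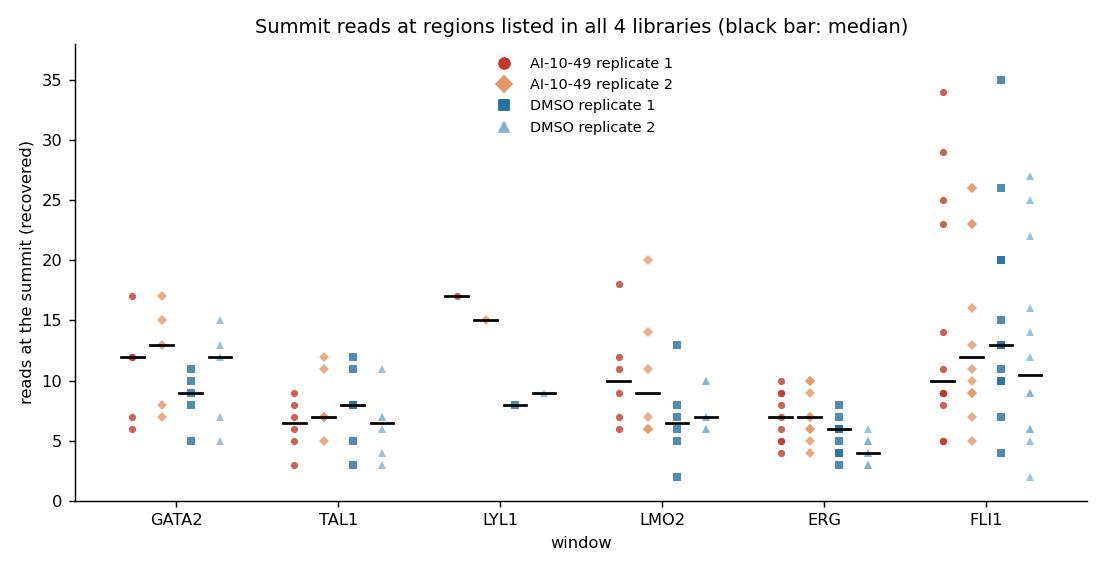
Summit reads of every region of all 4 libraries by gene window and library, with AI-10-49 libraries left of DMSO libraries and a black bar at each library's median. FLI1 reaches 34 and 26 reads with AI-10-49 and 35 and 27 with DMSO, while no ERG region of all 4 libraries exceeds 10 reads.

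The largest FLI1 rank difference was at chr11:128707663-128707835, toward the neighbouring gene KCNJ1, with 9 and 7 reads with AI-10-49 and 10 and 9 with DMSO. Percentiles were 46.9 and 21.1 with AI-10-49, against 72.0 and 67.9 with DMSO, a difference of -36.0 points, or -21.7 points without AI-10-49 replicate 2. The region chr11:128583538-128583861 had 8 and 16 reads with AI-10-49 and 13 and 14 with DMSO and was ranked lower, with a difference of -26.1 points and AI-10-49 replicate 1 far below the rest. At chr11:128701161-128701332 there were 14 and 13 reads with AI-10-49 and 11 and 12 with DMSO, and the percentiles overlapped. The DMSO-only region of FLI1, chr11:128575566-128575645, had 4 and 5 reads in the DMSO libraries. No region lay within 2 kb of the upstream start.

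Across the 10 approximate starts of the 6 genes, 4 had a region of all 4 libraries within 2 kb, those of TAL1 and LYL1, the upstream start of LMO2 and the downstream start of FLI1. The upstream starts of GATA2, ERG and FLI1 had no listed region. Among the starts with a region of all 4 libraries, the regions at TAL1 and FLI1 were ranked lower, the region at LYL1 and 1 of the 2 at LMO2 were ranked higher, and the other at LMO2 overlapped. The related factors TAL1 and LYL1, with 1 such region each, thus had start regions ranked in opposite directions. Of the ETS factors, ERG had 2 of its 9 regions of all 4 libraries ranked higher and 0 lower. FLI1 had 1 of 12 ranked higher and 4 lower. Genome-wide, 19.6% of regions of all 4 libraries were ranked higher and 18.8% lower. These contrasts between genes were not tested.

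Windows of 8 other genes of blood stem and progenitor cells, RUNX1, SPI1, MEIS1, GFI1B, KIT, CD34, MYB and LDB1, held 120 regions, 39 of them (32.5%) in all 4 libraries. They had 8 AI-10-49-only (6.67%) and 4 DMSO-only regions (3.33%), against 1.92% and 4.69% genome-wide, while the 6 genes had 1 and 5. Of the 39 regions, 7 (17.9%) were ranked higher and 7 (17.9%) lower, against 19.6% and 18.8% genome-wide. RUNX1, the partner of the factors described here and the protein that CBFβ-SMMHC binds, had 2 AI-10-49-only and 0 DMSO-only among 34 regions. Whether these counts differ from those of the 6 genes was not tested.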

How the data were processed

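The members, windows and gene lists were chosen with earlier results of these data known. Per the submitters' processing notes, reads were handled with cutadapt 1.3, Bowtie2, Picard 1.96, MACS2 2.1.0 and deepTools on hg19; which tool did what, and the settings, are not given in the sources used here. Peaks were deposited 1 list per library. Each deposited peak carries a score, which was not used, a fold enrichment (a ratio to local background) at its summit, and a −log10 p-value and −log10 q-value from the authors' peak caller. No counts were given and depth is otherwise unknown.

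Autosomes (1 to 22) and X were used. Summit reads and local background were recovered from the deposited fold and p-value under a Poisson model (tolerance 0.001 in −log10 p), and a whole number resulted for 99.99% of peaks; 4 or 5 per list had none. The most frequent local background of a list is its library background. Regions were merged at 1 bp of overlap. Peaks per window were compared by two-sided exact permutation of the 4 libraries; heights and ranks are the authors' own values per peak and were only described. Steps were tested on simulated data.

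Regions named were, per gene, up to 6 of all 4 libraries by mean percentile, the nearest to each approximate start within 2 kb, up to 3 AI-10-49-only and 3 DMSO-only by reads, and the largest 3 rank differences in each direction. Gene starts and windows came from general knowledge, and 1 marker window is not reported here. Replicate numbers marked no shared batch in the labels. Alternatives were stricter peak thresholds, equal list lengths, other overlap and ranking rules, windows widened by 20 kb, a replicate block and leaving out each library. Python 3.11.15, pandas 2.3.3, NumPy 2.4.6, SciPy 1.17.1 and matplotlib 3.10.9 were used.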

Additional observations from a re-analysis of the deposited data

How the results depend on the processing

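The AI-10-49 minus DMSO difference in peaks at LYL1 kept its sign in 10 of 10 alternatives, and under 11 of 11 the AI-10-49-only region of LYL1 was listed in every AI-10-49 library used and in no DMSO library. None of these alternatives could add a DMSO peak at that region, so its absence from the DMSO lists was fixed in advance. Leaving out a library or adding the block could not change the sign, with 7 and 6 peaks above 5 and 2. The difference in peaks changed sign with the strongest 48930 peaks of every list at GATA2 (2.5), LMO2 (1.0) and FLI1 (1.0), with at least 5 summit reads at GATA2 (2.0), TAL1 (1.0) and LMO2 (0.50), and with at least 60 times background at ERG (-2.5); the cause was not tested. A −log10 q of at least 5 left 61 regions, with 18 (29.5%) of all 4 libraries, 4 (6.56%) AI-10-49-only and 1 (1.64%) DMSO-only, against 32.1%, 4.69% and 2.61% genome-wide, and 3 of the 18 (16.7%) ranked higher, against 20.1%. Of the same 18 regions, 6 (33.3%) were ranked lower, against 19.7% genome-wide. AI-10-49-only and DMSO-only regions numbered 4 and 1 at equal list length (4.55% and 1.14%, against 3.77% and 3.11% genome-wide) and 2 and 1 with at least 5 reads (2.70% and 1.35%, against 5.41% and 1.77%). AI-10-49-only regions numbered 3 with 50% reciprocal overlap (2.44%, against 2.20%) and 2 of 102 with summits within 150 bp (against 2.14%), where 4 (15.4%, against 19.6%) and 5 (14.7%, against 19.5%) were ranked higher, and 5 (18.5%, against 19.9%) were ranked higher at 60 times background. Ranked lower were 7 with 50% reciprocal overlap (26.9%, against 18.7%) and 7 with summits within 150 bp (20.6%, against 18.7%). At 60 times background 7 were ranked lower (25.9%, against 19.6%). With at least 5 reads, or ranked by summit reads, 7 were higher and 8 lower. The counts were 8 and 8 at equal list length or by fold enrichment, and 9 higher and 8 lower in the widened windows. Whether these counts differ between directions was not tested.

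Leaving out 1 library at a time, regions of all 4 (or of the remaining) libraries ranged from 41 to 44, AI-10-49-only from 3 to 8, DMSO-only from 8 to 13, ranked higher from 12 to 18 and ranked lower from 14 to 16, since fewer libraries have to concur; genome-wide shares moved too, from 5.08% to 8.60% for AI-10-49-only, 7.70% to 25.5% for DMSO-only, 32.5% to 36.8% for ranked higher and 32.5% to 36.6% for ranked lower. The difference in peaks ranged from -2.5 to 1.5 at GATA2, where it was 1.0 without AI-10-49 replicate 1 and 1.5 without DMSO replicate 1, from -1.0 to -1.0 at TAL1, 1.5 to 4.5 at LYL1, -3.5 to -1.5 at LMO2, 0 to 3.0 at ERG and -6.0 to -1.0 at FLI1.

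With the replicate block, permuting within equal numbers, the LYL1 difference was 3.0 with an exact permutation p of 0.50, the smallest possible; no p could pass 0.05 with or without the block. Replicate 1 minus replicate 2 percentiles correlated at 0.0055 between the treatments over 29042 regions. With so few summit reads, this value cannot decide whether equal replicate numbers mark a shared experiment. Low reads limit all heights, with 2 or 3 reads sufficing for a peak.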
